A study of Mus musculus with 5 samples.

Results

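Border-associated macrophages are the resident macrophages of the meninges, the choroid plexus and the spaces around blood vessels. They share much of their programme with microglia, the macrophages of the brain tissue itself, but are told apart from them by receptors such as Mrc1 (the mannose receptor CD206), Cd163 (the scavenger receptor for haemoglobin-haptoglobin) and Stab1 (a further scavenger receptor), and by the lack of the microglial genes P2ry12, Siglech and Sall1. cGAS senses DNA in the cytosol and, by way of STING, switches on type I interferon, and the secreted interferon acts through its receptor to induce interferon-stimulated genes. The R241E form of mouse cGAS binds nucleosomes poorly and is thereby released from the restraint that chromatin places on it.

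A total of 282 nuclei were studied here, out of 9505 that passed the quality limits and 9748 in the 5 libraries. They were selected on their own counts of 10 genes: at least 4 UMIs (unique molecular identifiers, one per captured RNA molecule) summed over Mrc1, F13a1, Cd163, Ms4a7, Dab2 and Stab1, at least 2 of these from Mrc1 and F13a1, and at most 3 UMIs summed over P2ry12, Siglech, Sall1 and Gpr34. The libraries came from single-nucleus RNA-seq of nuclei sorted as DAPI+ NeuN- Olig2-, each from 1 mouse. The 2 R241E mice carried Tmem119-creERT2 and Cgas wt/R241E, and the 3 WT mice carried Tmem119-creERT2 and Cgas wt/wt. Per the study's methods tamoxifen was given to switch on the allele, and the driver is said to act chiefly in microglia and other macrophages of the brain. The tissue is labelled hippocampus, whereas the methods name brain, and the cell type is labelled microglia for every library. A text on H151 or DMSO in aged mice accompanies all samples, but no sample is assigned to either agent. No age is given per sample, and the study's methods describe tamoxifen in mice aged weeks, not months. The study's results name Cgas wt/R241E controls, whereas its methods and the titles name wild-type Cgas. The titles were followed here. The study set Mrc1+ macrophages aside before its own comparison of microglia.

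The members numbered 83 and 38 in R241E replicates 1 and 2, and 38, 50 and 73 in WT replicates 1 to 3. Together they held 226268 and 89420 UMIs (R241E) and 93689, 119783 and 169574 UMIs (WT), with median depths per nucleus of 1753.5 to 2412 UMIs. No member barcode was shared between libraries. Depth was small compared with the microglia of the same libraries (4806 nuclei by the mirrored rule, with 1427060 to 4096754 UMIs per library), and genes with low counts could not be assessed. At the edges of the rule, 5 members held exactly 4 marker UMIs, and 17 nuclei that met the other conditions fell 1 UMI short. A further 44 members held 3 microglial UMIs, and 38 nuclei with enough marker UMIs held 4.

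Summed per library, markers that the rule did not use matched the name. Pf4, Clec10a (a galactose-type lectin), Cbr2 (carbonyl reductase), Lyve1 (a hyaluronan receptor of perivascular macrophages) and Cd209f were each detected in members of every library, and the 20 such markers summed to 7347 to 11853 CPM (UMIs of a gene per 1000000 UMIs of the summed nuclei) per library, against 1425 to 1829 CPM in microglia. All 20 were detected in members. These are sums over nuclei, and single members can lack such markers. A transcript of Lyve1, Cd209f, Cbr2, Folr2, Clec10a or Mgl2 was found in 201 of the 282 members. The 10 microglial markers outside the rule summed to 615 to 868 CPM in members and 4503 to 5401 CPM in microglia. These differences between the classes are a description without a test, because the classes were set by genes of the same programme. Tmem119, whose promoter drives the Cre, gave 1 UMI in members of R241E replicate 1 and none in the other 4 libraries, whereas microglia held 103 to 141 CPM. Cgas itself was detected at 48.6 and 44.7 CPM in R241E members (11 and 4 UMIs) and at 10.7, 25.05 and 41.3 CPM in WT members (1, 3 and 7 UMIs), too few for a test. The counts do not show which allele was read.

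Among the lists of other cell types, fibroblast, mural and endothelial markers stayed at or below 30.9 CPM in every library, and no member held 3 or more UMIs of any of these 3 lists. Neuron markers ranged from 693 CPM in R241E replicate 2 to 2020 CPM in WT replicate 2, and 20 of the 282 members held 3 or more UMIs of a neuron, oligodendrocyte or astrocyte list. For the neuron list alone 12 members did. F13a1, a gene of the rule, was at 14.7 to 90.4 CPM in neuron-marker nuclei, against 2952 to 3621 CPM in members. Whether some members with few rule UMIs are other cells was not tested. WT replicate 3 stood apart. Its members correlated with those of WT replicates 1 and 2 at r = 0.65 and 0.63 across the tested genes, compared with 0.80 between these other two, and genes are not independent replicates. Monocyte, neutrophil and dendritic cell markers (S100a8, S100a9, Ly6c2, Ccr2, Plac8, Flt3) summed to 843 CPM in this library and 125 to 314 CPM in the other 4, and astrocyte markers to 619 CPM against 22.4 to 75.1 CPM. Of the 20 members with 3 or more such UMIs, 9 came from WT replicate 3, 6 from R241E replicate 1, 2 each from R241E replicate 2 and WT replicate 1, and 1 from WT replicate 2. For most of the genes named below, calls that changed without this library are given both ways.

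The share of border-associated macrophages did not separate the genotypes among kept nuclei or among nuclei not called microglia. They made up 3.45% and 2.80% of kept nuclei in R241E (exact 95% binomial intervals 2.76 to 4.26 and 1.99 to 3.82) and 2.48%, 2.54% and 3.25% in WT (1.76 to 3.38, 1.89 to 3.34 and 2.56 to 4.07), and the groups overlapped. The mean share was 3.13% ± 0.46 (SD, n = 2) in R241E against 2.76% ± 0.43 (SD, n = 3; two-sided exact permutation p = 0.5, with 0.1 the smallest that 2 against 3 libraries can give). Among nuclei not called microglia the shares were 5.60% and 4.19% in R241E and 5.52%, 7.76% and 7.47% in WT (exact permutation p = 0.3). Members made up 8.27% and 7.80% of members plus microglia in R241E, and 4.30%, 3.65% and 5.44% in WT, without overlap. This share also depends on the count of microglia, and it was not tested. The intervals cover counting error only, and all of these shares depend on the sort.

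The main comparison asked which genes differ between R241E and WT in these cells. Of 3215 genes tested, 0 were called higher and 0 lower in R241E by edgeR's quasi-likelihood test at an adjusted p below 0.05 (percent called 0 in each direction). At an unadjusted p below 0.05, 85 genes were higher (2.64%) and 55 were lower (1.71%). DESeq2's Wald test, run on the same sums, called 2 genes higher (Ccl8 and Gm17268) and 1 lower (Kcnip4). Without WT replicate 3, edgeR called 12 genes higher and 18 lower. For 376 genes (11.7%) both R241E libraries lay above all 3 WT libraries, and for 286 genes (8.9%) both lay below. The median log2 fold change of all genes tested was -0.02.

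Ccl8, which encodes the chemokine MCP-2, was the gene with the smallest p. Members of R241E replicates 1 and 2 held 58 and 17 Ccl8 UMIs (256 and 190 CPM), and members of the 3 WT libraries held none. Pooled over libraries this was at least 30.3-fold higher in R241E, with 3 UMIs over the WT group taken as the floor. The transcripts came from 12 of 83 and 6 of 38 R241E nuclei, with at most 30 UMIs in a nucleus, and from 0 of 161 WT nuclei. The 3 highest nuclei held 79.3% of the Ccl8 UMIs in R241E replicate 1 and 82.4% in replicate 2. If the 161 WT nuclei were independent, finding none would allow up to 1.86% of WT nuclei with a Ccl8 UMI at this depth. Nuclei of 1 mouse are not replicates, so this pooled limit leaves out the spread between mice and can be too tight. Taken per library, with nuclei thinned to equal depth, the exact 95% upper limits were 9.25%, 7.11% and 4.99% in WT replicates 1 to 3. These cover counting error only, and none of the limits applies to nuclei that express the gene. Microglia held 2 and 0 Ccl8 UMIs in R241E and 0, 1 and 0 in WT, and neuron-marker nuclei held 2 in R241E replicate 1 and none elsewhere. Ccl8 passed the count filter through its R241E counts alone, so the p values below describe how the fit moved and are not read as support. The edgeR test gave an adjusted p of 0.0502, above the threshold. With WT replicate 3 left out it was 0.000473, and with WT replicate 2 left out 0.0379. It was 0.0125 without members holding monocyte markers, and 0.00121 without members holding markers of neurons, oligodendrocytes or astrocytes. It stayed above the threshold without R241E replicate 1 (0.933), R241E replicate 2 (0.0987) or WT replicate 1 (0.198), with at least 6 marker UMIs per member (0.0838), with DESeq2's size factors (0.0516) and with the replicate block (0.0734). Of the 18 nuclei with Ccl8, 0 held 3 or more monocyte-marker UMIs, 13 held a perivascular transcript (Lyve1, Cd209f, Cbr2, Folr2, Clec10a or Mgl2; 71.3% of all members did), and 9 also held Ccl12.

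Ccl8 lies in a cluster of monocyte-attracting chemokine genes on mouse chromosome 11 (GRCm38.p6, RefSeq): Ccl2 at chr11:82035577-82037452, Ccl7 at chr11:82045712-82047525, Ccl12 at chr11:82101845-82103399 and Ccl8 at chr11:82115185-82116799. Ccl12 (MCP-5) was at 234 and 268 CPM in R241E members and at 85.4, 100.2 and 29.5 CPM in WT members, without overlap (log2 fold change 1.84 ± 0.43 SE, edgeR adjusted p = 0.557, not called). Ccl2 (MCP-1) gave 5 and 11 UMIs in R241E and 0, 1 and 1 in WT, and Ccl7 (MCP-3) gave 9 and 11 in R241E and 1, 1 and 3 in WT. Both were below the count filter. All 4 genes were above every WT library in both R241E libraries (as were 11.7% of all genes tested), without an adjusted call, and Ccl2 and Ccl7 were added after their values were seen. Ccl8 and Ccl12 were the 2 members of the 16-gene chemokine and cytokine list with enough counts for a test. Cxcl9, Cxcl10, Il6 and Ifnb1 gave no UMI in any member, although R241E microglia held Cxcl10 at 47.2 and 35.0 CPM. Near-identical copies can lose reads in such counts, so levels of Ccl8 and Ccl12 are uncertain.

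**Figure D1:**
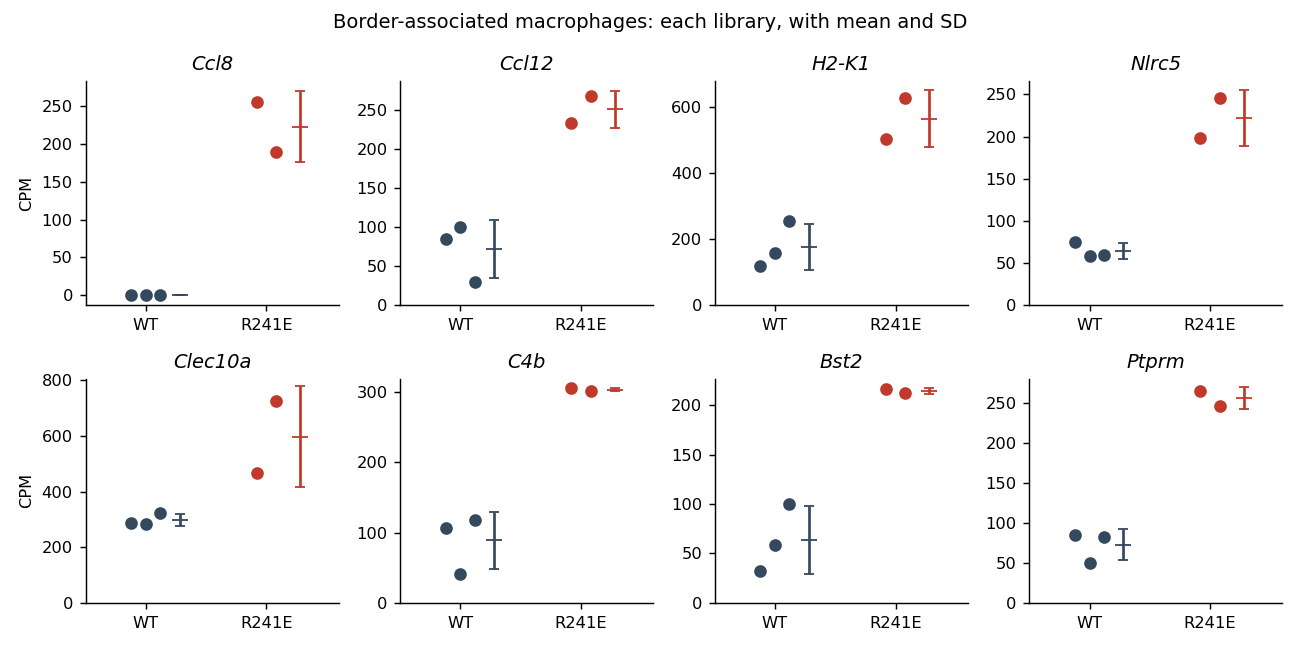
CPM in border-associated macrophages of each library for 8 genes (linear y axes from 0, 3 WT and 2 R241E libraries as points, mean and SD as bars). In every panel both R241E libraries lie above all WT libraries, and Ccl8 is at 0 in WT. The 8 genes are a selection that all have this order, which 11.7% of all genes tested had, and genes lower in R241E are not shown. None of the 8 was called by edgeR at an adjusted p below 0.05.

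Among the other genes with the smallest p on the higher side were Ptprm (a receptor-type tyrosine phosphatase), Gm17268 and Nlrc5 (the transactivator of MHC class I genes). Ptprm was at 265 and 246 CPM in R241E and 85.4, 50.1 and 82.6 CPM in WT. Nlrc5 was at 199 and 246 CPM in R241E and 74.7, 58.4 and 59.0 CPM in WT. Gm17268 was at 168 and 481 CPM in R241E and 42.7, 16.7 and 0 CPM in WT. The groups did not overlap for any of these 3 genes, whose log2 fold changes of 1.79 ± 0.33, 4.14 ± 0.78 and 1.76 ± 0.34 (SE; Ptprm, Gm17268, Nlrc5) shared an edgeR adjusted p of 0.279. Without WT replicate 3 Ptprm and Gm17268 were called (adjusted p = 0.0185 and 0.0115).

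On the lower side the smallest p values belonged to Kcnip4, Gm20528, Ank2, Slc7a15 and Mia2, and these were not called either. Kcnip4, a potassium channel-interacting protein of neurons, was at 84.0 and 190.1 CPM in R241E nuclei, compared with 363, 801 and 543 CPM in WT (log2 fold change -2.20 ± 0.44, edgeR adjusted p = 0.279, and 0.00762 without WT replicate 3). Ank2, which encodes ankyrin B and is abundant in neurons, was at 168 and 89.5 CPM in R241E nuclei, compared with 299, 417 and 277 CPM in WT (-1.28 ± 0.34, adjusted p = 0.838). Kcnip4 stood at 1022 to 4445 CPM in neuron-marker nuclei of the same libraries. Kcnip4 is itself among the neuron markers summed above, and the part of neuronal RNA in these differences was not tested. Gm20528 was at 278 and 246 CPM against 566, 401 and 602 CPM, and Slc7a15 and Mia2 had log2 fold changes of -1.10 and -1.01, all at the same adjusted p of 0.838.

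Interferon-induced antiviral genes were mostly estimated higher in R241E, and none was called. Of 35 list genes in the files, 20 had enough counts for a test. For 19 of these 20 the estimate was above 0, for 16 both R241E libraries lay above all WT libraries (against 11.7% of all genes tested), and 12 had an unadjusted p below 0.05 in the higher direction (against 2.64%), although 0 were called after adjustment. The median log2 fold change of the list was 0.90, compared with -0.02 for all genes tested. A gene that counted enough only in R241E could enter this set, so the count is not one of all 35 genes. The summed level of the list was 6249 and 7336 CPM in R241E members and 4504, 2672 and 3580 CPM in WT members. The list median stayed between 0.70 and 1.16 over all 14 alternatives, including 0.83 without WT replicate 3 and 0.74 with members limited to 1 microglial UMI.

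Within the list, Bst2 (tetherin, which holds virions at the cell surface) was at 217 and 212 CPM in R241E nuclei, compared with 32.0, 58.4 and 100.3 CPM in WT (log2 fold change 1.63 ± 0.42, called without WT replicate 3, adjusted p = 0.0225). Ifi203, an interferon-inducible member of the Ifi200 (PYHIN) family and the most abundant gene of the list in WT members, was at 928 and 917 CPM in R241E and 811, 559 and 531 CPM in WT (0.53 ± 0.23). Ifi207, of the same family, was at 455 and 582 CPM against 374, 267 and 389 CPM (0.55 ± 0.25). Ifi204, a further PYHIN gene, was at 464 and 447 CPM against 331, 159 and 242 CPM (0.90 ± 0.30). Parp14, an ADP-ribosyltransferase, was at 411 and 380 CPM against 374, 209 and 201 CPM (0.62 ± 0.30). Their edgeR adjusted p values ranged from 0.782 to 0.973. The exception in direction was Ifitm3, which blocks viral entry, at 181 and 190 CPM in R241E and 85.4, 41.7 and 430.5 CPM in WT, with the high value in WT replicate 3. Rsad2 (viperin) had too few counts for the test. It gave 9 and 44 UMIs in R241E members and none in WT members, pooled at least 21.4-fold higher in R241E, and 44 of the 53 UMIs came from replicate 2, 36 of them from 1 nucleus. From replicate 1 alone the bound was 5.08-fold.

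The 28-gene interferon list with which the study scored microglia gave a similar picture, with 10 genes tested, all 10 estimated higher, 6 above all WT libraries (against 11.7% of all genes) and a median of 0.92. It shares genes with the list above, among them Ifi204, Oas2, Oasl2 and Sp100. Genes could enter this set too through their R241E counts alone. Without the count filter 26 of the 28 genes were estimated higher and 2 lower. Among 21 genes of nucleic acid sensing and interferon signalling, 12 were tested, 9 were estimated higher and 3 lower, 2 lay above all WT libraries (against 11.7% of all genes), and the median was 0.24. Among these was Ifih1, the RNA sensor MDA5, at 88.4 and 223.7 CPM against 64.0, 58.4 and 23.6 CPM (1.61 ± 0.58, adjusted p = 0.973). Tmem173, which encodes STING, gave 12 and 4 UMIs in R241E and 2, 4 and 11 in WT, and Trex1 gave none.

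MHC class I genes were estimated in the same direction. All 7 tested genes of 13 were estimated higher, 5 lay above all WT libraries (against 11.7% of all genes tested), and the median was 0.86. A gene could enter this set through its R241E counts alone. Without the count filter 12 of the 13 genes were estimated higher and 1 lower. The median was 1.62 without WT replicate 3 (4 genes tested, H2-K1 and H2-D1 called), 1.58 without members holding monocyte markers (4 tested, 0 called) and 1.71 with the replicate block (7 tested, 0 called). H2-K1, a classical class I heavy chain, was at 504 and 626 CPM in R241E nuclei, compared with 117, 159 and 254 CPM in WT (log2 fold change 1.59 ± 0.32, edgeR adjusted p = 0.279). It was called without WT replicate 3 (adjusted p = 0.00296) and without members holding other-class markers (adjusted p = 0.0261), and it was not called in the other 4 fits that left out 1 library (adjusted p from 0.426 to 1.00), without members holding monocyte markers (0.0519) or with the replicate block (0.0544). H2-D1, the second classical heavy chain, was at 654 and 738 CPM against 288, 184 and 625 CPM (log2 fold change 0.86, and 1.55 without WT replicate 3, adjusted p = 0.00779), B2m, the shared light chain, at 261 and 369 CPM against 171, 134 and 366 CPM, and H2-Q7 at 84.0 and 89.5 CPM against 21.3, 0 and 11.8 CPM. B2m and Psmb8 overlapped between the groups, and WT replicate 3 held the highest WT value of H2-D1, H2-K1 and B2m. Class I heavy chain genes are similar in sequence, which leaves their separate levels uncertain.

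The response of border-associated macrophages was then set against that of microglia from the same mice. Microglia were the kept nuclei with at least 4 UMIs of the 4 microglial genes and at most 3 of the 6 macrophage genes, which gave 921 and 449 nuclei in R241E and 846, 1321 and 1269 in WT. A model of both classes with the library as a block tested whether the genotype effect differed between them. Of 3215 genes, 27 were called by edgeR at an adjusted p below 0.05. The effect of R241E was more negative in border-associated macrophages than in microglia for 24 (0.747% of genes tested) and more positive for 3 (0.0933%). These effects are log2 ratios, and WT microglia held few UMIs of some of these genes, as with Oas2 (4, 7 and 8 UMIs). A smaller ratio need not be a smaller gain in CPM. Mean Ifi207 went from 343 CPM in WT to 518 CPM in R241E members, and from 2.09 to 131 CPM in microglia. Mean Ifi204 went from 244 to 456 CPM in members and from 13.4 to 409 CPM in microglia. Of the 20 interferon-induced genes tested, 8 were called with the more negative effect in border-associated macrophages and 0 with the more positive, and so were 5 of 10 of the study's interferon list, 3 of 7 MHC class I genes and 4 of 4 MHC class II genes. The class I calls (H2-D1, Nlrc5 and B2m) were lost without WT replicate 3 (edgeR adjusted p = 0.0714, 0.102 and 0.131). Calls numbered 8 without either R241E library and 17 without WT replicate 3, and 7, 8 and 16 of these were among the 27.

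WT border-associated macrophages held part of the interferon-induced transcripts well above WT microglia. For 20 of the 35 list genes all 3 WT member libraries lay above all 3 WT microglia libraries. The share of all genes with this order was not counted, so the 20 are not read as particular to interferon-induced genes. For 8 of the 35 (Ifi203, Ifi207, Ifi211, Ifi213, Ifitm3, Oas2, Samd9l and Slfn5) the WT member mean also reached the mean of R241E microglia. For Ifitm3 the WT members were at 85.4, 41.7 and 430.5 CPM against a mean of 51.1 CPM, so WT replicate 2 lay below it. The other 27 lay below R241E microglia, among them Rsad2, at 0 CPM in all WT members against 43.7 and 18.9 CPM, Ifit3, at 32.0, 25.05 and 5.90 CPM against 74.1 and 48.4 CPM, and Ifit1, at 0, 16.7 and 0 CPM against 32.9 and 21.7 CPM. Ifi204 was at 331, 159 and 242 CPM in WT members and at 10.1, 10.98 and 18.9 CPM in WT microglia, while R241E microglia held 449 and 368 CPM. Oas2, a 2'-5'-oligoadenylate synthetase, was at 149, 192 and 171 CPM in WT members and at 1.62, 1.71 and 2.53 CPM in WT microglia, against 185 and 130 CPM in R241E microglia and 274 and 369 CPM in R241E members. Over the whole list, WT members held 2672 to 4504 summed CPM, WT microglia 671 to 738 CPM, and R241E microglia 3734 and 4299 CPM. In the sum all WT member libraries lay above all WT microglia libraries, and 2 of the 3 lay below both R241E microglia libraries. The levels in WT compare classes that were defined by macrophage genes and are given without a test. Neuron-marker nuclei, which serve as a guide to free RNA, held 49.4 to 327.2 CPM of the list, 0 CPM of Ifi204 in all 5 libraries and at most 1.74 CPM of Oas2.

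**Figure D2:**
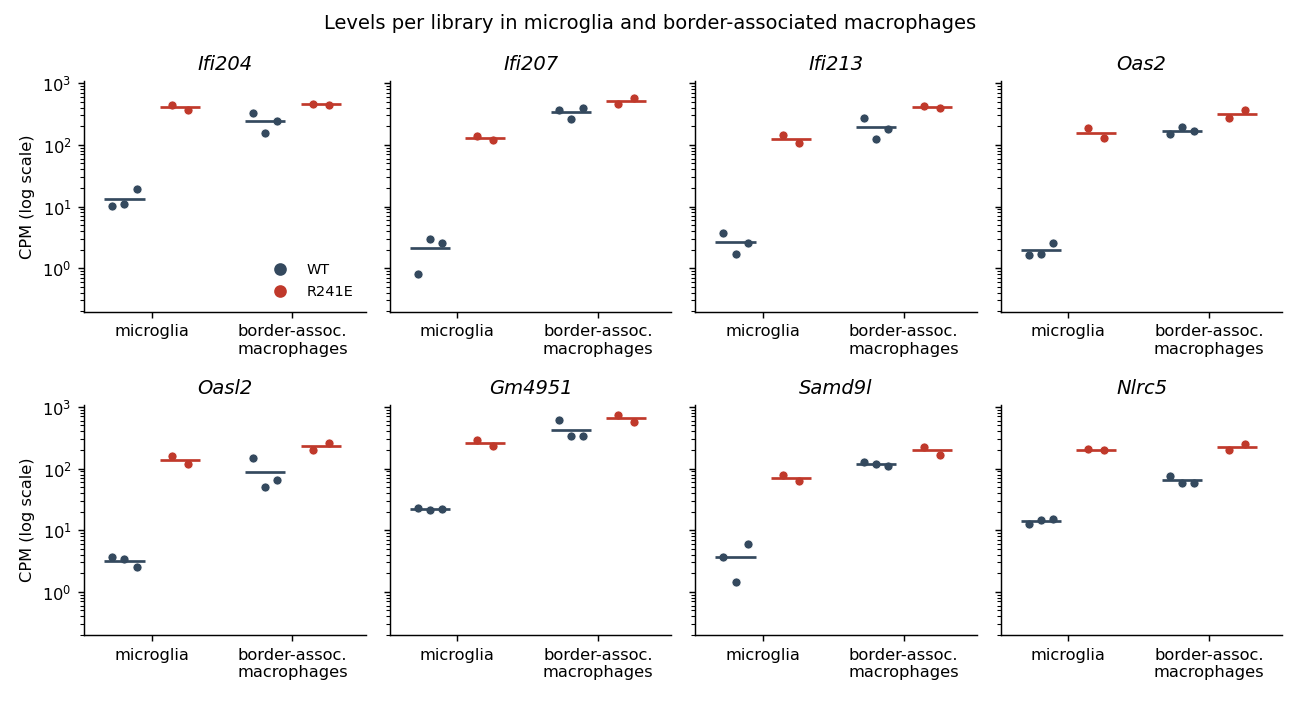
CPM per library (log y axis) of 8 genes called in the class-by-genotype test, in microglia and in border-associated macrophages, with WT and R241E libraries as points and group means as lines. WT microglia sit lowest in every panel, below the WT border-associated macrophages of all 3 libraries.

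The 10 genes with the smallest p in this test were, in order, Ifi213, Cybb, Oas2, Ifi207, Ifi204, Gm4951, Cd74, Arhgap15, Oasl2 and Bank1. For Ifi213, a PYHIN gene, the log2 fold change was 1.10 in border-associated macrophages and 5.63 in microglia, a difference of -4.48 ± 0.34 (SE, edgeR adjusted p = 8.9e-05). For Oas2 the values were 0.85 and 6.29 (difference -5.45 ± 0.44, adjusted p = 9.86e-05), and for Ifi207 0.55 and 5.82 (-5.28 ± 0.44, adjusted p = 0.00011). For Ifi204 they were 0.90 and 4.91 (-4.00 ± 0.36) and for Gm4951, an interferon-inducible GTPase gene, 0.62 and 3.54 (-2.92 ± 0.26), both at an adjusted p of 0.000167. For Oasl2, an oligoadenylate synthetase-like gene, the difference was -3.97 ± 0.54 (adjusted p = 0.00507). Samd9l and Slfn5, both interferon-induced restriction factors, and Sp100, of the PML nuclear bodies, were also called on this side, with differences of -3.61, -3.49 and -2.31. Without WT replicate 3 Samd9l was still called (edgeR adjusted p = 0.0129), but Slfn5 (0.0700) and Sp100 (0.0945) were not. The counts of Ifi200 and Oas family members share similar sequences and are uncertain one by one.

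Cybb, Arhgap15 and Bank1 are not members of the interferon lists. Cybb encodes the catalytic subunit of the phagocyte NADPH oxidase. It was at 358 and 380 CPM in R241E members and 192, 259 and 584 CPM in WT members, but at 32.3 and 33.6 CPM in R241E microglia and 0.406 to 0.947 CPM in WT microglia, so that the difference of effects was -5.30 ± 0.41 (edgeR adjusted p = 8.9e-05). Arhgap15, a Rac GTPase-activating protein, was at 1612 to 2338 CPM in members of all 5 libraries and at 399 and 320 CPM in R241E microglia against 51.5, 56.1 and 125.0 CPM in WT microglia (difference -2.09 ± 0.28, adjusted p = 0.00507). Bank1, a signalling adaptor best known in B cells, showed the opposite order. It was at 835 and 1320 CPM in R241E members and at 1185, 701 and 837 CPM in WT members, and at 134 and 172 CPM in R241E microglia against 470, 504 and 433 CPM in WT microglia (difference 1.83 ± 0.25, adjusted p = 0.00507). The other 2 genes with the more positive effect in members were Gm31243, with effects of -0.15 in members and -1.72 in microglia, and Ptprm. Ptprm was at 540 and 528 CPM in R241E microglia and 636, 614 and 538 CPM in WT microglia, so its genotype effects were 1.79 in members and -0.19 in microglia (difference 1.93 ± 0.29, adjusted p = 0.009). For Ccl8, which microglia nearly lacked, the difference between the classes was not detectable at this depth (9.78 ± 4.94, adjusted p = 0.744).

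**Figure D3:**
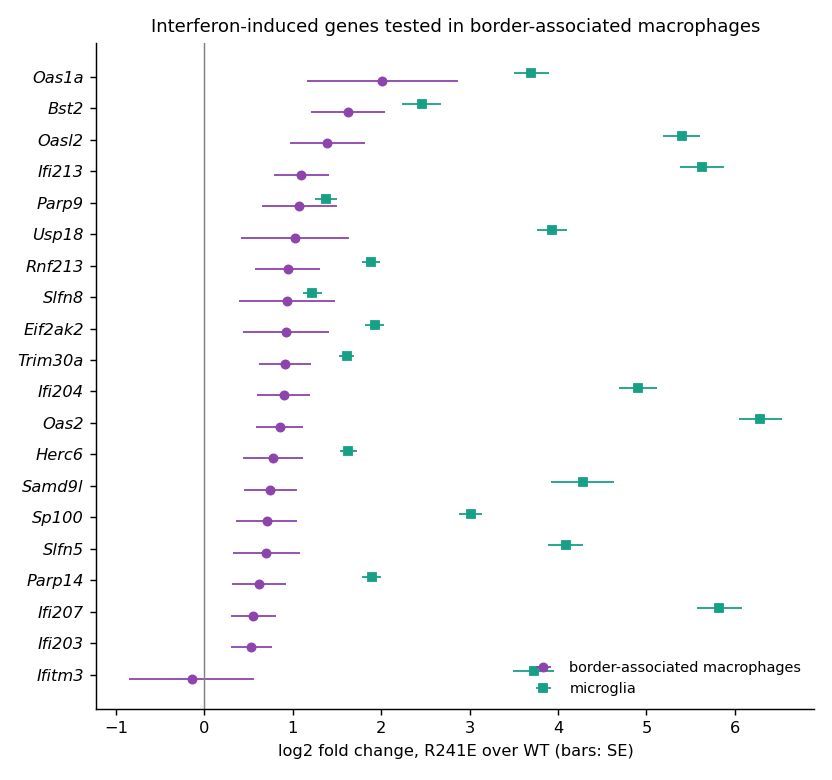
Log2 fold change of R241E over WT with SE for the 20 interferon-induced genes tested in border-associated macrophages, with the microglial value beside each where microglia passed the count filter (19 genes). All members' estimates but Ifitm3 are above 0, and the medians are 0.90 in members and 3.70 in microglia.

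To show the sequence context of these genes, the promoters of Ifi207 and Ifi213 (RefSeq, GRCm38.p6; 250 bases before to 50 after the start) are given. They are the genes of the interferon lists among the 10 above whose window holds the core of the interferon-stimulated response element, searched as GAAANNGAAA on either strand. Both were chosen after their values were seen. Capitals mark the match, which begins 41 bases before the start in Ifi207 and 73 bases before it in Ifi213, and both lines read along the transcribed strand, which is the minus strand.

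Ifi207, chr1:173741760-173742059: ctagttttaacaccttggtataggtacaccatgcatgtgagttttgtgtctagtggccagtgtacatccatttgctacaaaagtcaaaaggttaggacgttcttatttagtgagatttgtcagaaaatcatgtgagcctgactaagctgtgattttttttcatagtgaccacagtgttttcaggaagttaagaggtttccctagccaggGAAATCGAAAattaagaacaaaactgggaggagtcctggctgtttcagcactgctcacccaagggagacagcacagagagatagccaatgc
Ifi213, chr1:173599223-173599522: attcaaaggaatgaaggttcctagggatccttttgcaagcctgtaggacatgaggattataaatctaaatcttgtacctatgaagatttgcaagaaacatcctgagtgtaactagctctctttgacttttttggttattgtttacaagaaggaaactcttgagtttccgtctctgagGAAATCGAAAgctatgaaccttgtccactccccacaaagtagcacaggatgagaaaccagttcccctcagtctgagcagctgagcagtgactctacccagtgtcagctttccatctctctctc

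Of the 27 genes called in the class-by-genotype test, 19 matched the promoter table, and 7 of these held the motif, against 3.99% of all 27025 genes in the table. A match is a description of the letters in this window.

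MHC class II genes were estimated in the other direction, and their summed level rested on few nuclei. Class II molecules present peptides to CD4+ T cells, and their level separates subsets of border-associated macrophages. Cd74, the invariant chain, was at 411 and 302 CPM in R241E members and at 1580, 250 and 2559 CPM in WT members (log2 fold change -2.04 ± 0.72, edgeR adjusted p = 0.973), so that 2 WT libraries lay above R241E and 1 below. H2-Aa was at 115 and 112 CPM against 576, 50.1 and 943.5 CPM. All 4 class II genes tested were estimated lower in R241E, with a median of -2.04, and the groups overlapped for each of them. Leaving out WT replicate 3 gave a median of -1.08, and leaving out WT replicate 2 gave -2.54, where Cd74 and H2-Aa were called lower (adjusted p = 0.0379 for both). A single nucleus held 237 of the 264 class II UMIs (Cd74, H2-Aa, H2-Ab1, H2-Eb1) in WT replicate 1, and 3 nuclei with 403, 232 and 149 UMIs held 92.9% of the 844 in WT replicate 3. Without the 3 highest nuclei of each library the class II level was 532 and 211 CPM in R241E and 194, 43.2 and 373 CPM in WT. The nuclei with 237 and 403 class II UMIs were among the 20 that held monocyte markers.

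The share of nuclei gave other values than the level. After each nucleus was thinned to 1000 UMIs, a class II transcript was found in 33.7% and 16.2% of R241E members and in 15.8%, 8.0% and 15.3% of WT members (exact 95% intervals 23.7 to 44.9, 6.2 to 32.0, 6.0 to 31.3, 2.2 to 19.2 and 7.9 to 25.7), against 45.8%, 23.7%, 21.1%, 10% and 19.2% before thinning. In thinned neuron-marker nuclei the share was 0% to 0.98%. Thinning left out 2 members. The shares went against the CPM, and no order of the genotypes is read from them. In the class-by-genotype test Cd74, H2-Eb1, H2-Aa and H2-Ab1 were called, with microglial effects of 3.38, 2.66, 1.84 and 2.49 and members' effects below 0. For H2-Aa, H2-Ab1 and H2-Eb1 these calls were lost without members holding monocyte markers (adjusted p = 0.785, 0.485 and 0.442) and without WT replicate 3 (0.246, 0.456 and 0.183 in the same order). For Cd74 the adjusted p was 0.00672 and 0.00182 in these 2 fits. With at least 6 marker UMIs per member none of the 4 was called (adjusted p = 0.142 for Cd74 and 0.433 to 0.759 for the others).

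**Figure D4:**
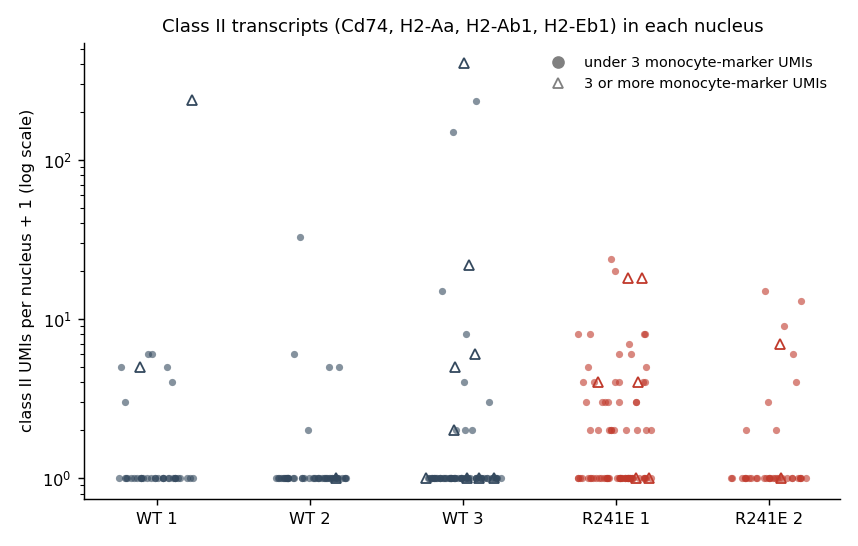
Summed class II UMIs plus 1 (log y axis) in each of the 282 nuclei, by library, with open triangles for nuclei holding 3 or more monocyte-marker UMIs. Most nuclei are at 0, 1 nucleus of WT replicate 1 and 3 of WT replicate 3 exceed 100, and no R241E nucleus exceeds 23.

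Lyz2 (lysozyme M) depended on the same libraries. It was at 888 and 1118 CPM in R241E members and at 278, 392.4 and 4063 CPM in WT members, and 619 of the 689 UMIs in WT replicate 3 came from its 9 members with monocyte markers. Without such members in any library the levels were 384 and 1168 CPM in R241E and 170, 313 and 501 CPM in WT. The log2 fold change was -0.71 ± 0.91 with all libraries (not called) and 1.53 without WT replicate 3 (adjusted p = 0.00608).

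Lists of macrophage identity and of scavenger, complement, lysosome and lipid-associated genes had medians from -0.03 to 0.26. Of the 16 border-associated macrophage markers tested outside the rule, 10 were estimated higher and 6 lower, with a median of 0.09. Clec10a was at 468 and 727 CPM in R241E nuclei, compared with 288, 284 and 324 CPM in WT (0.95 ± 0.26, edgeR adjusted p = 0.838), and it was nearly absent from microglia at 0.488 to 0.811 CPM. Msr1, the class A scavenger receptor, was at 261 and 436 CPM against 181, 242 and 230 CPM. Cbr2 lay on the other side, at 155 and 190 CPM in R241E nuclei, compared with 310, 259 and 230 CPM in WT (-0.66 ± 0.27, adjusted p = 0.973). Maf, a transcription factor of tissue macrophages, was at 1931 and 2158 CPM against 1836, 1820 and 1457 CPM. The rule genes are described only: Mrc1 was at 2996 and 2561 CPM in R241E and 2893, 2363 and 2353 CPM in WT, and F13a1, the A chain of coagulation factor XIII, at 3394 and 2952 CPM against 3181, 2955 and 3621 CPM.

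Scavenger and iron genes had 13 members tested with a median of 0.26 (9 higher, 4 lower, 1 above all WT libraries). Complement genes had 7 tested with a median of 0.26 (6 higher, 2 above all WT libraries). Of all genes tested, 11.7% lay above all WT libraries. All 12 cathepsin and lysosome genes were tested, 7 higher and 5 lower with a median of 0.07, and Lamp2 was the 1 gene of these above all WT libraries, at 336 and 391 CPM in R241E and 213, 217 and 265 CPM in WT. Macrophage transcription factors had a median of 0.03 over 7 genes, and lipid-associated genes -0.03 over 3 genes, which were Trem2, Apoe and Cd63. Gpnmb and Itgax, both markers of lipid-associated macrophages, gave no UMI in any member, and Spp1 gave 1. The 4 microglial markers tested were estimated lower with a median of -0.39, and 0 were called. None of these lists had an adjusted call. Over the alternatives the median changed sign for the scavenger and iron list (-0.19 to 0.29, and -0.16 without R241E replicate 2), the markers outside the rule (-0.11 to 0.28), the lysosome list (-0.03 to 0.33), the transcription factors (-0.13 to 0.18) and the lipid-associated genes (-0.29 to 0.57). C4b, a complement component outside the fixed lists and chosen after its values were seen, was at 305 and 302 CPM in R241E nuclei, compared with 107, 41.7 and 117.9 CPM in WT (1.72 ± 0.36, adjusted p = 0.341, and 0.0115 without WT replicate 3).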

How the data were processed

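Single-nucleus RNA-seq of 2 R241E and 3 WT mice was analysed from the gene-by-barcode count matrices deposited by the authors, which hold UMI counts that were not normalized. They were made with Cell Ranger (7.0.0 per the matrix header) on mm10, per the labels and the study's methods. Nuclei with 200 or more and under 4500 genes, under 10000 UMIs and under 5% mitochondrial UMIs were kept. No doublet caller was run. The members, gene lists and tests were chosen with earlier results of these data known.

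UMIs of the members were summed per library, because nuclei of 1 mouse are not replicates, and CPM are UMIs per 1000000 of these sums. Library totals of members (89420 to 226268 UMIs) limit the precision. R241E and WT sums were compared with edgeR 4.0.16 in R 4.3.3 (TMM scaling, filterByExpr, quasi-likelihood F test, two-sided, Benjamini-Hochberg adjustment at 0.05), and SE is the absolute log2 fold change divided by the square root of F. The 10 rule genes were left out of the tests. The difference of the genotype effects between members and microglia was tested on both classes with the library as a block. DESeq2 1.42.0, other size factors, no filter, other limits of the rule, thinning to 1000 UMIs, a replicate block, and leaving out each library or marked members were alternatives. Leaving out members with monocyte markers was added after seeing the data. The code was tested on simulated data. Shares were compared by exact permutation tests over libraries, with exact (Clopper-Pearson) 95% intervals.

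Named genes were the 5 with the smallest p in each direction where fewer than 5 were called, up to 6 genes per list (called, then most abundant), Cgas and Tmem119, and the 10 called genes with the smallest p between the classes. Others, such as C4b, Lyz2, Ifih1, Ccl2, Ccl7, Rsad2 and the Ccl8 nuclei, were named after their values were seen. Promoters came from RefSeq (GRCm38.p6). Some genes that this rule names are not reported here.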

Additional observations from a re-analysis of the deposited data

Results flagged for a closer look

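The genotype effect differed between border-associated macrophages and microglia for the 10 genes below, by the edgeR interaction test with the library as a block. The effect in border-associated macrophages minus that in microglia was, on the log2 scale, -4.48 for Ifi213, -5.30 for Cybb, -5.45 for Oas2, -5.28 for Ifi207, -4.00 for Ifi204, -2.92 for Gm4951, -5.10 for Cd74, -2.09 for Arhgap15, -3.97 for Oasl2 and 1.83 for Bank1. The adjusted p values ranged from 8.9e-05 to 0.00507. For Ifi213, Oas2, Ifi207, Ifi204 and Oasl2 both R241E libraries lay above all 3 WT libraries in either class, whereas for Cybb, Gm4951, Cd74, Arhgap15 and Bank1 the groups overlapped in border-associated macrophages and not in microglia.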

How the results depend on the processing

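Calls in the comparison of R241E with WT were few and moved with the setting. Genes called higher numbered 0 as reported, 16 without a filter on low counts, 2 with DESeq2's Wald test, 6 without members holding other-class markers, 1 without members holding monocyte markers and 0 to 12 when 1 library was left out, and genes called lower numbered 22 without the filter, 1 with DESeq2 and 0 to 18 when 1 library was left out. With the replicate block 2 genes were called higher (Iigp1 and Lyz2) and 2 lower (Kcnip4 and Hs6st3). Same-numbered samples had deviations correlated at r = 0.03 for number 1 and -0.11 for number 2. With 2 R241E libraries, their deviations from the group mean are equal with opposite sign. These values therefore cannot decide whether same-numbered samples are paired. WT replicate 3 has no partner in this fit. The 27 genes whose effect differed between the classes became 101 without the filter, 57 without members holding other-class markers and 8 to 36 when 1 library was left out.

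Lyz2 reversed, from -0.71 to 1.57 with the replicate block, to 1.15 without members holding monocyte markers and, over the fits that left out 1 library, to a range of -1.18 to 1.53. The cause was not tested. The shares of border-associated macrophages among kept nuclei and among nuclei not called microglia kept their direction in every alternative run. Of the values of single named genes under the alternatives, 380 kept direction and side of the threshold, 37 passed it, 7 no longer passed it and 3 reversed. With 38 to 83 nuclei per library, genes of low count could not be tested.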

Other observations

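A perivascular transcript (Lyve1, Cd209f, Cbr2, Folr2, Clec10a or Mgl2) was found in 201 of the 282 border-associated macrophages. It was found in 160 of the 208 nuclei without a class II UMI, in 25 of the 47 with 3 or more, and in 4 of the 20 with 3 or more monocyte-marker UMIs. WT replicate 3 had the other order for class II, with 7 of 9 nuclei at 3 or more class II UMIs and 44 of 59 without any. Median depths were 2154.5 UMIs in nuclei without class II UMIs and 2164 in those with 3 or more. These are counts over nuclei pooled from 5 libraries and carry no test. A further 144 kept nuclei had enough macrophage-marker UMIs but more than 3 microglial UMIs, and were left out.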
